A study of Mus musculus with 21 samples.

Results

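The gamma subunits of heterotrimeric G proteins were described in the hippocampus of adult male mice with and without early life stress. The members were Gng5 and the other G protein gamma subunit genes Gng2, Gng3, Gng4, Gng7, Gng8, Gng10, Gng11, Gng12 and Gng13, taken by name from the counts table, which gave 10 of its 55487 gene lines. Gng5 was chosen because its level differed between the groups in these data, so its difference is given as a description with no test. The other 9 members were chosen by family name and were tested.

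Every library came from the dissected hippocampus of 1 wild type C57BL/6 male at 10 weeks of age. The maternal separation (MS) mice had been taken from the dam for 4 h a day on postnatal days 10 to 17, and the study's methods add limited bedding and nesting material over those days. The standard rearing (SR) mice were controls of the same strain, sex, genotype and age. There were 9 MS and 12 SR libraries, and 1 MS library that stood apart in a principal component analysis (MS mouse 5, at 27.1 on the first component against -12.2 to 11.9 in the others) was left out, as the study left out 1 library that it does not name. The 8 MS and 12 SR mice compared had 17276810 to 26450808 counts each. Markers of the dentate gyrus and of the CA fields were present in all 20 mice, with Prox1 at 70.3 to 156 CPM (counts scaled to library size) and Wfs1 at 113 to 200 CPM. Litters had been assigned to a condition whole and the labels name no litter. Animal numbers ran in 7 sets of 3 consecutive numbers, each within 1 condition (A, B and C in MS, and D, E, F and G in SR), and fell into a lower range and an upper range, the upper holding sets C and G.

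Heterotrimeric G proteins carry the signal of seven-pass receptors, the receptors for most transmitters and neuropeptides of the hippocampus. A gamma subunit forms a tight dimer with a beta subunit and anchors it to the membrane through a lipid (a prenyl group) at its C-terminal end. Once the alpha subunit has bound GTP, the freed beta-gamma dimer acts on its own targets, among them inwardly rectifying potassium channels, phospholipase C beta and adenylyl cyclases.

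The letters of Gng5 bear on how its reads could be counted, because the annotation holds 6 near-identical copies of its coding sequence or most of it. Gng5 lies on the forward strand of GRCm38 at chr3:146499807-146505572. A search of the GRCm38 transcripts with those of Gng5, keeping alignments of at least 150 bases at 90% identity or more, found a gene annotated as protein coding, AC170998.1 (chr17:28726083-28726700, forward strand), and 5 processed pseudogenes. Gng5 itself, the copy annotated as protein coding and the nearest pseudogene, Gng5-ps (chr16:22295027-22295231, forward strand), read as follows, with the bases at which a copy differs from Gng5 in capitals.
Gng5: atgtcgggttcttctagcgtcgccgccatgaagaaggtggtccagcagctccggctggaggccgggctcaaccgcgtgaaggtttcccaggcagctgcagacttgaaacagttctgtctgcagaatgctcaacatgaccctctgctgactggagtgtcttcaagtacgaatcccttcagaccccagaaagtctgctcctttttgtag
AC170998.1: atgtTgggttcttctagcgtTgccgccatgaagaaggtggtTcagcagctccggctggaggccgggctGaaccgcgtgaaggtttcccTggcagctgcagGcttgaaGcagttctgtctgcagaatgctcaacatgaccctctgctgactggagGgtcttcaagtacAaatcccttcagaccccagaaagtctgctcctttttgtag
Gng5-ps: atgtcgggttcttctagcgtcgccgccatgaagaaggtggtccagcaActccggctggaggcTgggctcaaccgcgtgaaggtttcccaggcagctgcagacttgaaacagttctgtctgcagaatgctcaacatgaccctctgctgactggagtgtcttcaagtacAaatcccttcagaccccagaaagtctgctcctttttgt
Over the coding sequence, AC170998.1 differed from Gng5 at 9 of 207 bases (95.7% identity) and Gng5-ps at 3 of 205 (98.5%). The other pseudogenes were Gm13342 (98.1%), Gm3150 (98.0%), Gm47192 (95.7%) and Gm3785 (95.5%). With positions counted from 1 at the A of the Gng5 start codon, the substitution G168A was carried by 6 of the 6 copies, and each of the others by 1 copy. AC170998.1 held 347 counts over the 20 mice against 3406 for Gng5, or 10.2%, and was counted in every mouse, with 11 to 37 counts. Gng5-ps held 24 counts, and the 4 remaining pseudogenes 0 to 3 counts each. The log2 fold change of AC170998.1 in MS against SR was -0.16 (SE 0.190, adjusted p = 0.790 by edgeR's quasi-likelihood test). With the counts of Gng5 and its 6 copies added together, the log2 fold change of Gng5 was 0.45 in place of 0.51. How the counting treated reads that match several copies is not given in the sources used here.

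All 10 members were detected in all 20 mice, and all 10 passed the filter on low counts that left 18146 genes for testing. To compare genes, CPM was divided by the length of the merged exons in kilobases, and levels are the mean ± SD over the 20 mice (n = 20). Gng3, a gamma subunit of neurons, was highest at 63.5 ± 4.23 CPM per kilobase. Gng7, best known from the striatum, followed at 50.9 ± 8.54, and Gng2, which is common in brain, at 38.4 ± 4.81. These 3 genes made up 34.2%, 27.2% and 20.6% of the summed level of the members.

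A middle group lay well under them. Gng12, a widely expressed gamma subunit, was at 11.2 ± 0.821 CPM per kilobase, and Gng4 at 8.37 ± 1.93. Gng11, whose protein carries a farnesyl group in place of the geranylgeranyl group of most gamma subunits, was at 4.80 ± 1.04. Gng13, the gamma subunit of taste receptor cells and of retinal ON bipolar cells, was at 4.53 ± 1.16. Gng5, expressed in many tissues, ranked eighth of 10 at 2.86 ± 0.638, with 1.54% of the summed level and between 123 and 251 counts in a mouse. Gng10 and Gng8, the latter known from olfactory and vomeronasal sensory neurons, were lowest at 0.927 ± 0.252 and 0.776 ± 0.281, and their median counts of 25 and 24.5 in a mouse limit what can be seen in them.

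The level of Gng3 was 81.8-fold that of Gng8. Most neighbours in this order kept it in nearly every mouse, as Gng7 lay over Gng2, Gng2 over Gng12 and Gng5 over Gng10 in 20 of 20. The order was least clear between Gng11 and Gng13 (14 of 20 mice) and between Gng10 and Gng8 (13 of 20), whose differences were smaller than the SD of either gene. The summed level was 184.8 ± 11.1 CPM per kilobase in MS (n = 8) and 187.1 ± 5.14 in SR (n = 12).

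**Figure D1:**
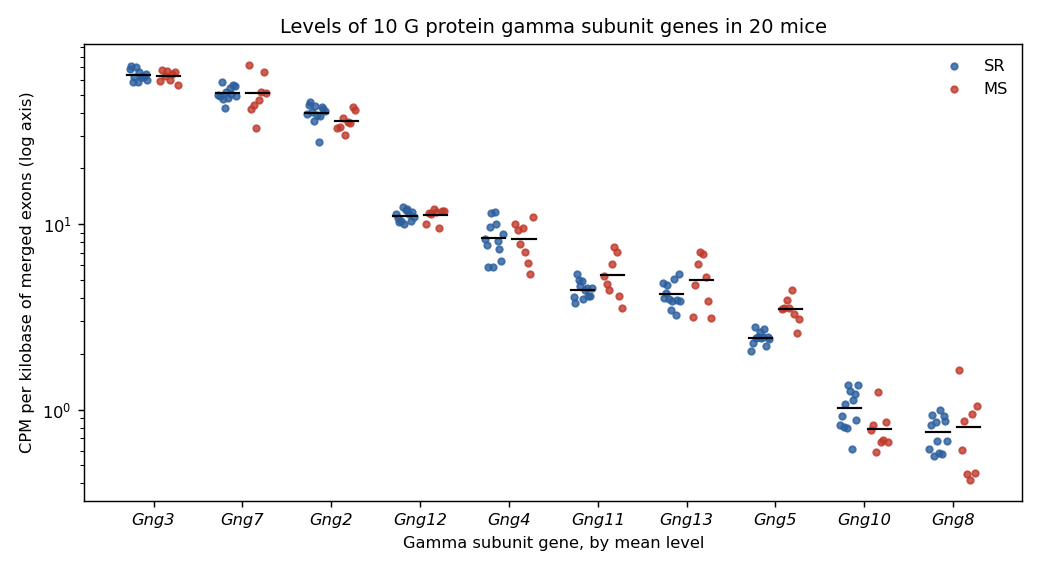
Level of each gamma subunit gene in CPM per kilobase of merged exons (log axis) for 12 SR mice (blue) and 8 MS mice (red), with points for mice and lines for group means. Gng3, Gng7 and Gng2 lie over the other 7 genes in every mouse, and Gng5 is the gene in which the MS points sit highest against the SR points.

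The order rests in part on the length used and on shared exons. With the median coding transcript, which is far shorter than the merged exons for Gng2 (515 against 4390 bases) and Gng5 (593 against 2765), the level of Gng2 was 327 and that of Gng5 13.3 CPM per kilobase, which placed Gng2 over Gng3 and Gng5 over Gng4. Gng10 shares 946 of its 1314 exonic bases (72.0%) with Gm20503 on the same strand, a gene that held 0 counts. Over the bases it does not share, the level of Gng10 was 3.31 CPM per kilobase and passed that of Gng5. Opposite strand genes overlap 51.6% of the exonic bases of Gng13 (Chtf18), 24.2% of Gng3 (Bscl2) and 20.4% of Gng2 (Gm48283). The library kit keeps the strand, while the strand setting of the counting is not given in the sources used here.

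Gng5 was higher in MS. In SR its level was lowest at 5.69, with a median of 6.74 and a highest value of 7.71 CPM, and in MS lowest at 7.16, with a median of 9.73 and a highest value of 12.2 CPM. The groups overlapped through MS mouse 8 alone, at 7.16 CPM, and the other 7 MS mice lay over all 12 SR mice. The means were 9.62 ± 1.51 CPM in MS (n = 8) and 6.75 ± 0.570 in SR (n = 12), a log2 fold change of 0.51, or 1.42-fold. Because Gng5 was chosen for this difference, the value may be too large. The share of Gng5 in the summed level of the members was 1.90% in MS and 1.31% in SR.

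Of the other 9 members, 0 passed the test (edgeR's quasi-likelihood test, adjusted p under 0.05 over all 18146 genes), where 0.011% of all genes passed. At an unadjusted p under 0.05 there were 2 of 9, Gng11 in the direction of higher and Gng10 of lower levels in MS, where 11.5% of all genes passed, 6.62% higher and 4.92% lower. DESeq2 called 0 of the 9, and 0.966% of the genes it tested, with no adjusted p for Gng8 and Gng10. Over the 9 the log2 fold changes had a median of -0.0048, where that over all genes was 0.00084.

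Gng11 came closest in the direction of Gng5. Its level in SR ran from 3.43 over a median of 4.10 to 4.94 CPM, and in MS from 3.23 over 4.59 to 6.88 CPM, with 3 of 8 MS mice over the SR range and 1 under it. The log2 fold change was 0.26 (SE 0.119, adjusted p = 0.396 by edgeR), and 0.12 without set A. Gng13 had the same size of difference, 0.26 (SE 0.147, adjusted p = 0.513 by edgeR). It was 0.17 without MS mouse 4, and 0.05 without set A. Its MS mice ran from 2.41 over 3.81 to 5.50 CPM and so lay on both sides of the SR mice, at 2.51 over 3.08 to 4.19 CPM.

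Gng10 and Gng2 lay in the opposite direction. The level of Gng10 in SR ran from 0.802 over a median of 1.31 to 1.78 CPM, and in MS from 0.774 over 0.958 to 1.64 CPM. The upper end in MS rests on MS mouse 4 alone, and the other MS mice reached 1.12 CPM, under the SR median. The lower end in SR rests on SR mouse 8, with the next SR value at 1.05 CPM. The log2 fold change of Gng10 was -0.37 (SE 0.171, adjusted p = 0.413 by edgeR), from 16 to 43 counts in a mouse. Without MS mouse 4 it was -0.50 (adjusted p = 0.308 by edgeR). Gng2 ran from 122 over 179 to 200 CPM in SR and from 133 over 155 to 188 CPM in MS, with every MS mouse within the SR range. The lower end of that range rests on SR mouse 8 alone. The next SR value was 159 CPM in SR mouse 5, over the MS median. For Gng2 the log2 fold change was -0.15 (SE 0.0753, adjusted p = 0.472 by edgeR).

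The remaining members had log2 fold changes between -0.03 and 0.07, with adjusted p-values from 0.916 to 0.994. The intervals say how much of a change these mice could still hold. For Gng3 the 95% interval of the fold ran from 0.927 to 1.05 and for Gng12 from 0.938 to 1.08. It was wider for Gng7, from 0.853 to 1.16, and for Gng4, from 0.783 to 1.22. For Gng8, the least abundant, it ran from 0.763 to 1.44, which covers a change of the size of that in Gng5. The intervals of Gng11, from 1.01 to 1.42, and Gng13, from 0.971 to 1.48, reach that size as well. Those of Gng10 and Gng2 ran from 0.608 to 0.991 and from 0.811 to 1.01. None of these intervals is adjusted over genes. MS mice ran from 125 to 274 CPM in Gng7, against 160 to 220 in SR, and from 0.634 to 2.49 CPM in Gng8, against 0.851 to 1.52 in SR. The highest value of both genes belonged to MS mouse 1, and the next MS values were 250 CPM for Gng7 and 1.59 CPM for Gng8. This mouse also had the highest scores of the striatal and medial habenula marker lists (2.93 and 3.03, against up to 2.10 and 0.444 in the others), whose part in these values was not tested.

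**Figure D2:**
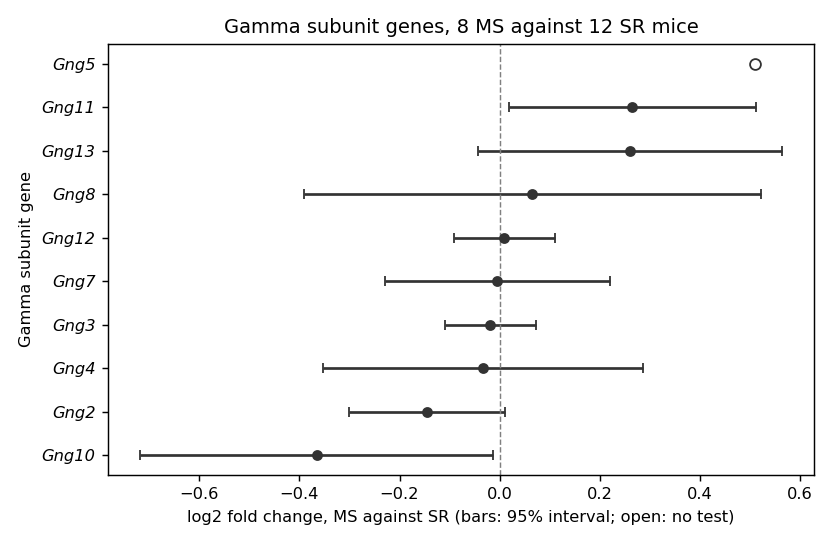
The log2 fold change of each gamma subunit gene in 8 MS against 12 SR mice, with points for edgeR estimates and bars for their 95% intervals. Gng5, which was chosen on this comparison, is an open point with no interval at 0.51, and the intervals of Gng11 and Gng10, not adjusted over genes, leave 0 out.

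Whether the members varied between sets of animal numbers was asked within each condition, which uses no difference between MS and SR. Of the 10 members, 0 passed (edgeR, adjusted p from 0.534 to 0.972), where 0.0302% of genes passed, and DESeq2 also called 0, against 0.987% of the genes it tested. Only Gng13 had an unadjusted p under 0.05 (p = 0.0377 by edgeR, against 8.94% of all genes), with set means of 5.43, 3.58 and 3.13 CPM in A, B and C. Without the filter on low counts, the same test called 3 of the 10 members, Gng2, Gng4 and Gng7, where 5.1% of all genes passed.

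Gng5 was at set means of 11.0 CPM in A (n = 2), 10.1 in B and 8.23 in C (n = 3 each), and the SR sets lay together at 6.92 in D, 6.76 in E, 6.57 in F and 6.75 in G (n = 3 each). Every MS set mean was thus higher than every SR set mean. As Gng5 was chosen on the difference between these same mice, this order is no separate evidence. The MS set nearest to SR was C, of the upper range of animal numbers. The log2 fold change of Gng5 was 0.64 in the lower range and 0.28 in the upper range, where the groups hold 3 mice each. For the other 9 members, the difference of the MS effect between ranges passed in 0 (edgeR, adjusted p from 0.698 to 0.999), and 0% of all genes passed. At an unadjusted p under 0.05 there were also 0 of the 9, where 8.52% of all genes passed. The values of Gng11 were 0.33 (SE 0.147) and 0.16 (SE 0.218), and those of Gng2 -0.22 (SE 0.0881) and -0.03 (SE 0.128). Animal numbers carry no date in the labels, and the sets are not labelled as litters. With counts summed within each set (3 MS against 4 SR sets), the log2 fold change of Gng5 was 0.53 and that of Gng11 0.31 (adjusted p = 0.601 by edgeR).

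**Figure D3:**
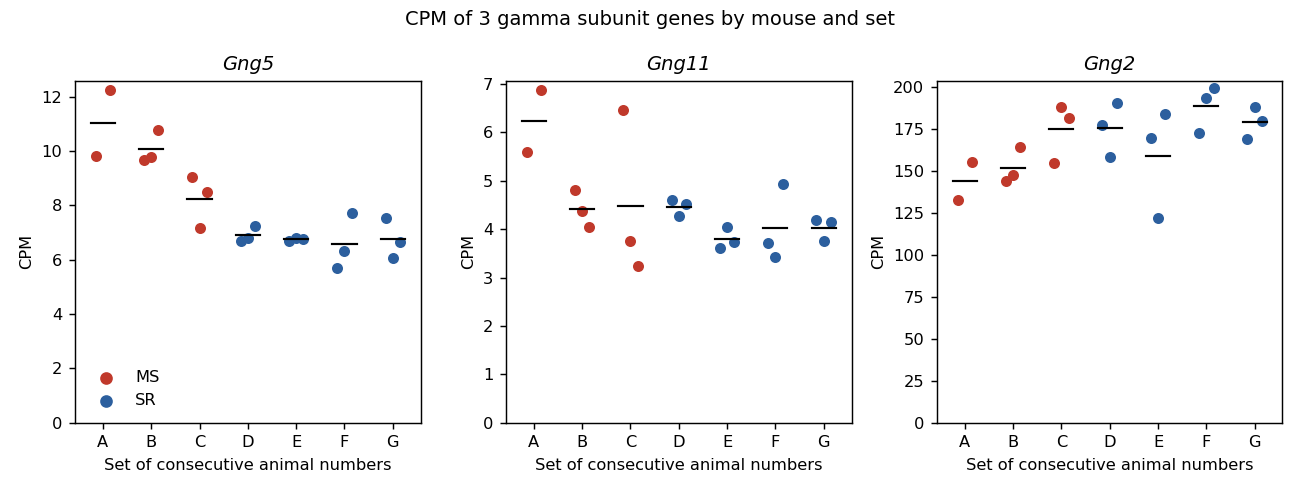
CPM of Gng5, Gng11 and Gng2 in each mouse, by set of consecutive animal numbers, with MS sets A to C in red, SR sets D to G in blue and lines for set means. In Gng5 the MS set means lie between 8.23 and 11.0 CPM and the SR set means between 6.57 and 6.92 CPM, while the sets overlap in Gng11 and Gng2. Gng5 was chosen on the difference between MS and SR in these same mice.

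The genes that work with gamma subunits were taken from a list of 58, of which 52 were tested. In MS against SR, 0 of the 52 passed (edgeR, adjusted p under 0.05), and 9 had an unadjusted p under 0.05, or 17.3% against 11.5% of all genes. Of these 9, 3 were higher and 6 lower, where 6.62% of all genes were higher and 4.92% lower. DESeq2 called 0 of them. Their median log2 fold change was 0.0057. The smallest p-values on the higher side belonged to Gnai3, an inhibitory alpha subunit (0.12, SE 0.0401), Rce1, the protease that trims prenylated proteins (0.18, SE 0.0714), and Pdcl, a chaperone of the beta-gamma dimer (0.11, SE 0.0475). Their adjusted p-values by edgeR were 0.242, 0.323 and 0.364.

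On the lower side were Adcy2, an adenylyl cyclase that beta-gamma stimulates (-0.12, SE 0.0399), Gnao1, the main alpha subunit of brain (-0.09, SE 0.0319), and Rgs11, which binds Gnb5 through a gamma-like domain (-0.13, SE 0.0545). Their adjusted p-values by edgeR were 0.232, 0.289 and 0.346. Adcy2 was at 131.8 ± 11.0 CPM in MS (n = 8) and 143.5 ± 5.57 in SR (n = 12). It passed the test without MS mouse 8, without set C and in the lower range of animal numbers alone. In these settings 109, 340 and 230 of all genes passed, against 2 in the main comparison. MS mouse 8 belongs to set C, which the other settings leave out whole. Of the 22 beta-gamma targets tested, 4 had an unadjusted p under 0.05 in the main comparison, or 18.2% against 11.5% of all genes. All 4 were lower in MS, and 8 of the 22 had a log2 fold change above 0. Beside Adcy2 the 4 were the potassium channels Kcnj3 (-0.11) and Kcnj6 (-0.20) and the phospholipase Plcb1 (-0.10), named after their values were seen.

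Per length, the partners of each role that were highest were Gnb1 at 112 CPM per kilobase among beta subunits and Gnao1 at 70.0 among alpha subunits. Adcy1, a calcium-stimulated cyclase, was at 99.7 among beta-gamma targets, the prenyl protein methyltransferase Icmt at 14.9 among prenylation and assembly genes, and Rgs11 at 14.4 among the regulators. Among the gamma subunits outside the 10 members, Gngt2 was at 0.498 ± 0.160 CPM per kilobase, under Gng8, and was the only 1 of 3 tested. Gngt1, the rod photoreceptor gamma subunit, held 1 count in all, and Gng14 could not be matched to a line of the table. The 4 beta subunits tested had log2 fold changes from 0.0044 to 0.02.

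Across mice, the members were compared with scores of 13 marker lists for cell types and neighbouring tissues (the mean standardised log2 CPM of a list), giving 130 pairs. In bulk tissue, fewer cells of a type and less RNA per cell cannot be told apart. By Pearson's r 11 pairs passed and by Spearman's rho 10 (permutation test, two-sided, adjusted p under 0.05 over the 130 pairs), and 3 pairs passed by r whichever mouse was left out. Gng2 rose with the CA pyramidal score (r = 0.84, adjusted permutation p = 0.0013, and rho = 0.64, adjusted permutation p = 0.0407). Within MS r was 0.82, within SR 0.92, in the lower range of animal numbers 0.89 and in the upper range 0.14 (6 mice), and without the 2 farthest mice 0.64. By rho this pair passed in 10 of 20 fits that left 1 mouse out.

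Gng2 also rose with the dentate granule cell score (r = 0.76, adjusted permutation p = 0.00715, and rho = 0.71, adjusted permutation p = 0.0250), at 0.78 and 0.53 within the ranges, 0.87 within MS, 0.70 within SR and 0.72 without the 2 farthest mice. Gng4 moved the other way and fell with the dentate granule cell score (r = -0.75, adjusted permutation p = 0.00737, and rho = -0.72, adjusted permutation p = 0.0250). Within the ranges r was -0.81 and -0.67, within MS -0.75, within SR -0.79 and without the 2 farthest mice -0.74. Between the members themselves, r of the deviations from the group means was lowest for Gng2 and Gng4 at -0.54 and highest for Gng5 and Gng11 at 0.60, given as descriptions over 20 mice.

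**Figure D4:**
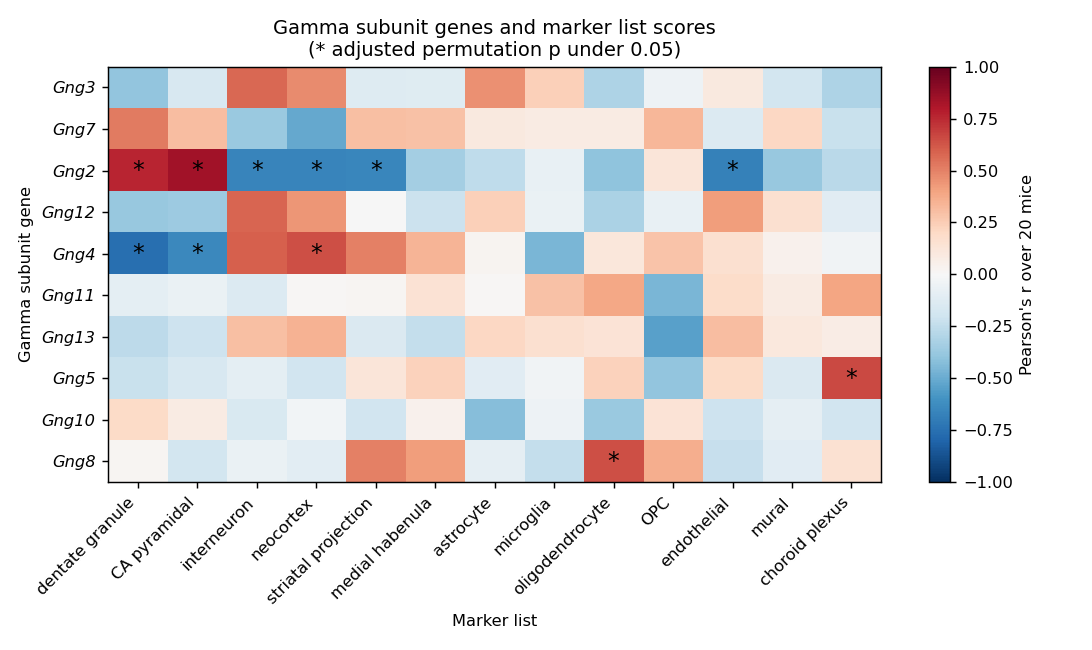
Pearson's r over 20 mice between the log2 CPM of each gamma subunit gene (rows) and the score of each marker list (columns), from blue (negative) to red (positive), with an asterisk where the adjusted permutation p is under 0.05. Of the 11 asterisks, 6 are in the row of Gng2 and 3 in that of Gng4.

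The other 8 pairs that passed by r did not do so whichever mouse was left out. Gng2 fell with the neocortex (r = -0.66, rho = -0.67), endothelial (-0.68, -0.57), interneuron (-0.66, -0.48) and striatal (-0.65, -0.68) scores by r, though rho did not pass for the endothelial (adjusted permutation p = 0.0799) and interneuron (adjusted permutation p = 0.179) scores. Without the 2 farthest mice the values of r were -0.35, -0.46, -0.50 and -0.48, so that these relations rest in part on those mice. In the upper range of animal numbers r of Gng2 was -0.76, -0.57, 0.66 and -0.22 with the same scores. Gng4 fell with the CA pyramidal score (r = -0.64, rho = -0.77) and rose with the neocortex score (0.65, 0.67), and Gng8 rose with the oligodendrocyte score (0.64, 0.64). By rho alone, Gng4 rose with the striatal score (rho = 0.85, adjusted permutation p = 0.0013, against r = 0.51, adjusted permutation p = 0.124), and this was the highest rho of the 130 pairs in size. It passed by rho in 20 of 20 fits that left 1 mouse out, and without the 2 farthest mice, MS mouse 1 and SR mouse 8, r was 0.76. Within MS r was 0.48, within SR 0.57 and in the lower and upper ranges 0.53 and 0.77. Without SR mouse 3 or without SR mouse 10, 3 pairs passed, and without SR mouse 8, 7 pairs. Gng7 did not pass with the striatal list (r = 0.30, adjusted permutation p = 0.510, and rho = -0.46, adjusted permutation p = 0.197), nor Gng8 with the medial habenula list (r = 0.42, adjusted permutation p = 0.324, and rho = -0.30, adjusted permutation p = 0.536). Without the 2 farthest mice r turned to -0.63 for Gng7 and -0.33 for Gng8, and MS mouse 1 had the highest score of both lists, at 2.93 for the striatal and 3.03 for the medial habenula list.

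Gng5 moved with the choroid plexus list, whose genes belong to the epithelium that secretes cerebrospinal fluid and lies against the hippocampus. Taken as deviations from the group means, which leave the difference between MS and SR out, r was 0.71 (adjusted permutation p = 0.00832) and rho 0.68 (adjusted permutation p = 0.0199). Over the levels themselves r was 0.66 and rho 0.69, with r at 0.86 within MS, 0.66 within SR, 0.72 and 0.47 within the lower and upper ranges and 0.69 without the 2 farthest mice. The pair over levels passed in 17 of 20 fits that left 1 mouse out.

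The summed level of the 10 choroid plexus genes ran from 55.3 to 4278 CPM in MS and from 31.1 to 4625 CPM in SR, with Ttr, the carrier of thyroid hormone, from 10.4 to 4106 CPM. The median log2 fold change of the list was 0.90, with 0 of 10 genes passing (edgeR, adjusted p under 0.05, and 0 of 10 at an unadjusted p under 0.05). MS mouse 8, the only MS mouse within the SR range of Gng5, had the lowest choroid plexus score of the MS mice, at -1.51. With the score as a term of the fit, the log2 fold change of Gng5 was 0.42 in place of 0.51. The part of choroid plexus tissue in the Gng5 difference beyond that term was not tested. For Gng11, r with the choroid plexus score was 0.40 (adjusted permutation p = 0.355) and rho 0.48 (adjusted permutation p = 0.179).

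**Figure D5:**
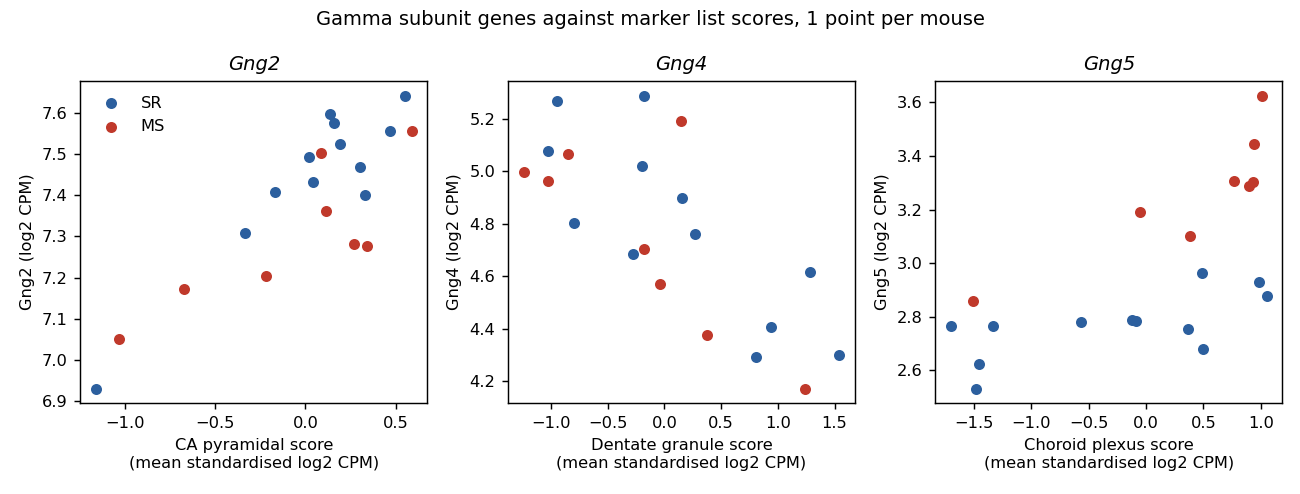
Log2 CPM of Gng2, Gng4 and Gng5 (vertical axes) against the CA pyramidal, dentate granule cell and choroid plexus scores (horizontal axes, mean standardised log2 CPM), with 12 SR mice in blue and 8 MS mice in red. Gng2 climbs and Gng4 falls along the scores in both groups (r = 0.84 and -0.75), and in Gng5 the MS mice lie over SR mice of like score, with MS mouse 8 at the lower left.

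The genes whose level followed Gng5 most closely were sought among 12142 genes with a mean of at least 5 CPM, by r of the deviations from the group means over 20 mice, given as a description. They were Npc2, which binds cholesterol in the lysosome (r = 0.87, rho = 0.89), Aldh2, the mitochondrial aldehyde dehydrogenase (0.85, 0.84), Slc13a4, a sulphate transporter (0.85, 0.86), Id1, an inhibitor of DNA binding by bHLH factors (0.83, 0.81), and Bmp6, a secreted growth factor (0.83, 0.80). Within SR alone r was 0.76 to 0.87, and within MS 0.88 to 0.95, in the same mice on which these genes were picked for their high r. A list of 15 leptomeningeal genes, drawn up after these names were seen, had r of 0.58 with Gng5 and 0.57 with Gng11 on the same scale. The list was made with the relations of Gng5 in these mice known, so r is a description here and no test. Its summed level was 77.1 to 168 CPM in MS and 67.3 to 163 CPM in SR. Its genes had log2 fold changes with a median of 0.04, and 0 of 15 passed (edgeR, adjusted p under 0.05, and 0 of 15 at an unadjusted p under 0.05). With its score as a term the log2 fold change of Gng5 was 0.49.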

How the data were processed

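Hippocampal RNA of 21 mice (9 MS, 12 SR) was extracted with TRIzol, and libraries were made with a directional kit. The authors aligned reads to GRCm38 with STAR 2.7.3a and counted them per gene with featureCounts (version not given in the sources used here), and the deposited values are raw counts. No column was left without a sample. Groups came from the treatment label, and replicate numbers were given in accession order. GENCODE M21 (GRCm38) named 55227 of 55487 lines. Counts were tested in edgeR 4.0.16 (TMM, filterByExpr with a minimum count of 10, robust quasi-likelihood F test, Benjamini-Hochberg adjustment over all genes) in R 4.3.3, with DESeq2 1.42.0 and limma 3.58.1 as alternatives, and the scripts were tested on simulated data. The log2 CPM values used a prior count of 2. Marker relations used permutation tests of 100000 draws. Copies of Gng5 were found with BLAST+ 2.17.0. No pair of libraries of 1 group held identical values (0 of 94, smallest chi-square per degree of freedom 3.58). The library left out was the farthest on the first component of the 500 most variable genes.

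All members were named. Partner genes were named where called, as the highest per role, and as the 3 of smallest p in each direction, and the 5 genes most like Gng5 by r. The members and lists were chosen with earlier results of these data known, and the leptomeningeal list was added after seeing the data. Alternatives were the other tools, all 21 libraries, no filter, other scalings, added terms, set as a block or summed, other lengths, and each mouse or set left out. Protein sequences were not used here.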

Additional observations from a re-analysis of the deposited data

Results flagged for a closer look

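Gng10 in MS mouse 4 was at 1.64 CPM (36 counts), apart from the other 7 MS mice at 0.774 to 1.12 CPM, by Dixon's criterion for a sample far from the rest of its group. Chance flags about 1 in 20 such groups, and SR mice reached 1.78 CPM.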

How the results depend on the processing

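Over 40 alternatives the log2 fold change of Gng5 lay between 0.42 and 0.63 (0.42 with the choroid plexus score as a term, 0.63 in the lower range of animal numbers alone or without set C), and 0 of the other 9 members passed in any of the 40. The lowest adjusted p over them was 0.125 for Gng11, 0.139 for Gng2, 0.146 for Gng13 and 0.308 for Gng10, and the highest 0.806, 0.772, 0.940 and 0.703, and these 4 genes kept their direction. Members near 0 changed sign. Gng7 was at 0.28 with all 21 libraries and 0.026 with the choroid plexus term, which also gave 0.0023 for Gng3 and -0.011 for Gng8. Gng8 was at -0.071 with the set as a random block in limma-voom, and Gng4 at 0.024 with a transcript length trend as a term and 0.029 in the lower range alone. With 1 mouse or set left out, the log2 fold changes ran from -0.040 to 0.0017 for Gng3, -0.12 to 0.048 for Gng4, -0.10 to 0.092 for Gng7, -0.21 to 0.27 for Gng8 and -0.020 to 0.041 for Gng12. They ran from 0.12 (without set A) to 0.35 for Gng11, 0.052 (without set A, and 0.17 without MS mouse 4) to 0.42 (without set C) for Gng13, -0.50 to -0.27 for Gng10 and -0.24 to -0.10 for Gng2. The count of all genes passing was 2 and depended on the setting, at 134 with DESeq2, 1 with all 21 libraries or no filter on low counts, 0 with counts summed within sets (1753 at an unadjusted p under 0.05 in edgeR) or the choroid plexus term (1502), and 230 in the lower range alone. With 1 mouse or set left out it ran from 0 to 340, with 0 without MS mouse 1, 2, 4 or 6, SR mouse 1, 5 or 11, or set A, B, D or F, with 1 without set G, 109 without MS mouse 8 or 9, and 340 without set C. Of the partner genes, 1 (Adcy2) passed in the lower range alone, and 0 to 1 with a mouse or set left out. Between sets, 3 members passed with no filter on low counts (and 5.1% of all genes), and 0 to 0 with a mouse left out, as for the difference between ranges. The pairs of member and marker list that passed numbered 3 to 16 with a mouse left out. Of the 10 members, 6 kept their rank by level with the longest transcript, 2 with the median coding transcript and 8 with exons shared on the same strand left out. The leptomeningeal term, the summed copies, the unshared exons and the lower range alone were chosen after seeing the data. The cause of these shifts was not tested. No paired analysis was possible because the labels give no replicate numbers that the groups share. Low counts limit Gng8 and Gng10 most, and p-values treat mice as independent although littermates may share a set.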

Other observations

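The MS library left out of the comparisons, MS mouse 5, differed from the other 20 in several gamma subunits. Gng7 was at 564 CPM there and at 125 to 274 CPM in the others, and Gng2 at 73.2 CPM against 122 to 200 CPM. Gng12 was higher at 71.6 CPM against 44.9 to 58.6 CPM, and Gng11 lay just over the others at 6.92 CPM against 3.23 to 6.88 CPM. Gng5 was within their range at 9.13 CPM, as were Gng3, Gng4, Gng8, Gng10 and Gng13. Partners of Gng7 in striatal neurons, named after their values were seen, were higher as well, with the olfactory-type alpha subunit Gnal at 283 CPM against 98.5 to 180 CPM and the cyclase Adcy5 at 739 CPM against 137 to 332 CPM. Rgs9, a striatal regulator of G proteins, was at 240 CPM against 11.5 to 79.5 CPM. The rise was not particular to these genes. Other partners over the range were Gnb5 at 154 CPM against 85.0 to 104 CPM and Gnao1 at 895 against 691 to 834 CPM. Others lay under it, such as Kcnj3 at 79.9 CPM against 127 to 171 CPM and Gnaq at 176 against 232 to 307 CPM. In the same library Penk, an enkephalin precursor, was at 418 CPM against 13.8 to 135 CPM. Of the dentate granule cell list, Dsp was at 0.692 CPM against 54.0 to 138 CPM and Prox1 at 20.4 against 70.3 to 156 CPM. Pdzd2 of that list was higher, at 124 CPM against 69.4 to 110 CPM, and its other genes were lower.

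Gng4 varied with the trend of expression on transcript length within a library (r = 0.66 of the deviations from the group means over 20 mice, a description), and Gng5 less so (r = 0.20). Farthest in the opposite direction were Gng13 (r = -0.42), Gng3 (-0.35) and Gng11 (-0.34). With the trend as a term, the log2 fold change was 0.22 for Gng11 and 0.21 for Gng13, against 0.26 for each without it.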
